A study of Mus musculus with 6 samples.

Results

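Across the bone marrow stromal cells studied here, 4825 stretches of open chromatin lay more than 100 kb from the span of any protein-coding gene and carried a peak in every ATAC-seq library of the series. They were taken from 113038 regions, made by merging the overlapping peaks of all 6 deposited lists on chromosomes 1 to 19 and X, of which 55226 had a peak in all 6 lists. A shared region counted as a gene desert region when it was under 3000 bp long and the summit of its strongest peak was more than 100 kb from all 21627 protein-coding genes of the RefSeq table used (GRCm38.p6, the coordinates of mm10). The regions were thus chosen by measured values, the presence of a peak in each list, its length and its summit position, and these are given below as descriptions only.

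ATAC-seq cuts accessible DNA with the Tn5 transposase, so that a peak marks chromatin that the enzyme could reach. All mice were female, carried Lepr-Cre;LSL-tdTomato+/- and were 8 to 10 weeks old when treatment began. 3 libraries came from mice given 4 weekly intravenous injections of PBS and 3 from mice given the same number of doxorubicin (DOX) injections at 5 mg/kg, and marrow was taken 8 weeks after treatment and sorted for tdTomato as mesenchymal stem and progenitor cells (MSPCs). Lepr-Cre marks cells that express, or descend from cells that expressed, the leptin receptor, and the reporter is carried by both groups. The labels call the libraries biological replicates, but do not say how many mice went into each, and a p-value here weighs a difference against the spread among libraries.

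Gene deserts are long stretches of the genome without protein-coding genes. They often flank genes that control development, and many hold enhancers, which are short sequences bound by transcription factors that can act on a gene far away through looping of the chromatin. Other deserts lie beside genes of neuronal adhesion and can be closed outside the nervous system. Transcripts without a coding function, among them long non-coding RNAs (lncRNAs) and microRNA precursors, can start inside a desert, so an open region there may be an enhancer, a non-coding promoter or a site of another kind. The peak lists do not tell these apart.

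The libraries differed in depth. The background, the mean number of fragments per position recovered from the deposited peak statistics, ranged from 0.558 to 1.27 over the PBS libraries and from 1.67 to 2.22 over the DOX libraries, lowest in PBS replicate 3. All DOX libraries were deeper than all PBS libraries, so depth and treatment cannot be told apart. A list without a peak at a place says only that the signal there was below the threshold of that library. The sorted cells were checked against marker genes: a peak within 1 kb of a gene end was listed for 10 to 11 of 12 MSPC markers in each library, against 1 to 2 of 8 B cell markers, 1 to 3 of 8 myeloid markers, 2 to 3 of 8 erythroid and megakaryocyte markers, 2 of 8 T and NK cell markers and 1 to 3 of 8 endothelial markers.

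Sequences could be printed where a gene desert region met a non-coding gene of the RefSeq tables. Of 1005 microRNA hairpins, 105 lay more than 100 kb from any protein-coding gene, and 12 of these had a gene desert region with its summit within 5 kb. The mature forms of 6 are shown, because 4 of them form pairs that share a seed, the bases from position 2 to 8 that pair with a target, and the other 2 come from the same deserts; the seed is in capitals. The miR-29 pair comes from chromosome 6 and shares the seed AGCACCA. The miR-100 and miR-99a pair comes from chromosomes 9 and 16 and shares the seed ACCCGUA. The let-7c and miR-125b sequences, from chromosomes 16 and 9, share no seed with the others shown. Another let-7 hairpin, Mirlet7a-2 on chromosome 9, is also among the 12, and its mature forms are not shown.
mmu-miR-29a-3p, chr6:31062673-31062694, minus strand: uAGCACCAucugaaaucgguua
mmu-miR-29b-3p, chr6:31063025-31063047, minus strand: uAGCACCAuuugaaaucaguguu
mmu-miR-100-5p, chr9:41531437-41531458, plus strand: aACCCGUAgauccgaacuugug
mmu-miR-99a-5p, chr16:77598940-77598961, plus strand: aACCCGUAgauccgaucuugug
mmu-let-7c-5p, chr16:77599672-77599693, plus strand: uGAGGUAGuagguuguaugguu
mmu-miR-125b-5p, chr9:41581940-41581961, plus strand: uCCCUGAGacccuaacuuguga

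Of the gene desert regions, 62 had their strongest summit inside a RefSeq promoter window, which runs from 250 bases before to 50 bases after a transcript start. The windows of 4 lncRNA genes are shown, 5′ to 3′ along the transcript and from GRCm38.p6, with the base pairs within 10 bases of the summit in capitals. The lncRNA 6820426E19Rik starts in the desert beside Cxcl12. Mir100hg is the host transcript of the miR-100 cluster, and Gm51670 starts inside Mir100hg on the other strand. Firre, an X-linked lncRNA known for its part in nuclear organisation, is shown because its promoter region had PBS and DOX ranks that did not overlap.
6820426E19Rik, chr6:117494985-117495284, plus strand: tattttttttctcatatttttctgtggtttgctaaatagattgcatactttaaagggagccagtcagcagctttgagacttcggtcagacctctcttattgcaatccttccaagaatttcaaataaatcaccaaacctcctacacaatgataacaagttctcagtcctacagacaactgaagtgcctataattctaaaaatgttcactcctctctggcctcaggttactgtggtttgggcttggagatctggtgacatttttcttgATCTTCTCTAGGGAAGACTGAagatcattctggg
Mir100hg, chr9:41474643-41474942, plus strand: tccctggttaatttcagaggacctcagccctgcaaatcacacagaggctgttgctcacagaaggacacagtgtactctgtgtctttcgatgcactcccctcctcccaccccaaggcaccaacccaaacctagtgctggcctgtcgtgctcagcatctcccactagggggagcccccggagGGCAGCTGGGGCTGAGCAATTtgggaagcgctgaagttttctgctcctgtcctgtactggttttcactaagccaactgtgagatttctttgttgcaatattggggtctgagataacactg
Gm51670, chr9:41579597-41579896, minus strand: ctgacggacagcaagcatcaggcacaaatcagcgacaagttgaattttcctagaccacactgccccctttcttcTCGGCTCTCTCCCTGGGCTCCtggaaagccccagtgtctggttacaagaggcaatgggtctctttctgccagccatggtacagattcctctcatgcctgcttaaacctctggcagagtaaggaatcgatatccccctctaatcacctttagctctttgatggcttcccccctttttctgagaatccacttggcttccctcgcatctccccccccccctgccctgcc
Firre, chrX:50635272-50635571, minus strand: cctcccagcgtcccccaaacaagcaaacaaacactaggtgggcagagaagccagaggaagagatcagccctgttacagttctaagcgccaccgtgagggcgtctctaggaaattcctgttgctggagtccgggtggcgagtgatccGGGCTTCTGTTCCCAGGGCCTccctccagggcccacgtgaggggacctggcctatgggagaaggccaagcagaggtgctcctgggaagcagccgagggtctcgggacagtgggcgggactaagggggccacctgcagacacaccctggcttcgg

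Short motifs were searched on both strands of these 62 windows and of all 32619 windows, all 300 bases long. Matches of different motifs may overlap, and the choice of motifs was made after these data had been seen. TGTGGT, the core bound by RUNX factors of bone and blood, occurred in 24 of the 62 windows (38.7%), in 16.6% of all windows and in 20.1% of lncRNA windows. GGAATG, the core of TEAD factors, occurred in 27.4%, 14.6% and 16.6% of the same sets. TGANTCA, the AP-1 site, occurred in 14.5%, 7.85% and 9.31%. CANNTG, the E-box, was found in 66.1% of the 62 windows against 72.3% of all, and GGGCGG, the GC box, in 25.8% against 35.9%. The palindromic core bound by EBF factors occurred in 1 window (1.61%, against 0.907% of all). The median GC content of the 62 windows was 50.8%, against 53% over all windows and 48.3% over lncRNA windows, so the sets also differ in base composition. The 62 windows were chosen for an open summit, while the other sets hold windows whether or not they had a peak. The contrasts are thus not shown to be particular to gene deserts. In the 6820426E19Rik window the RUNX core stands at positions 23 to 28 and 229 to 234, counted from 1 at the 5′ end, and in the Gm51670 window, on the opposite strand, at positions 54 to 59. A match describes letters and does not show that a factor was bound.

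The gene desert regions were short and, at the median, 196439 bp from the nearest protein-coding gene (quartiles 136768 and 315982 bp, range 100063 to 1862755 bp). Their median length was 588 bp, with a range of 154 to 2849 bp. Just inside the distance threshold stood regions 100063, 100098 and 100128 bp away, with median percentile ranks of 30.1, 48.9 and 96.1. Just outside it stood regions 99999, 99995 and 99992 bp away, with ranks of 21.4, 30.6 and 31.8. Regions of 2849, 2821 and 2698 bp were just under the length limit, with ranks of 91.6, 75.4 and 82.0, and regions of 3023, 3110 and 3205 bp were just over it, with ranks of 91.4, 92.0 and 91.6. The percentile rank, from 0 to 100, places the strongest peak of a region among those of all 55226 shared regions within 1 library, by its −log10 p.

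Open regions thinned out steadily with distance from genes. Between protein-coding genes, the shared regions numbered 43.4 per Mb within 10 kb of a gene, 18.9 per Mb from 10 to 50 kb and 14.6 per Mb from 50 to 100 kb. Beyond the threshold there were 11.1 per Mb from 100 to 200 kb, 6.75 per Mb from 200 to 500 kb, 2.25 per Mb from 500 to 1000 kb and 1.05 per Mb beyond 1000 kb. The last class held 78 regions in 74.1 Mb of sequence. The share of regions with a peak in all 6 lists was 58.4% within 10 kb of a gene, 44.9% from 100 to 200 kb and 38.2% beyond 1000 kb. Of all 11112 regions more than 100 kb from a gene, 43.5% were in all 6 lists and 15.9% in 1 list, against 48.9% and 15.3% of the 113038 regions of every position.

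**Figure D1:**
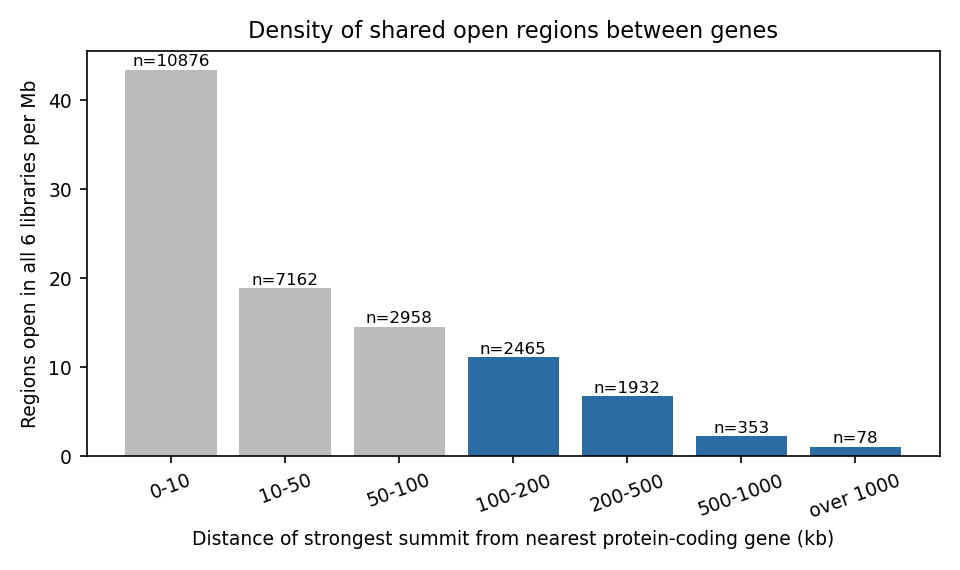
Bars give the number of regions with a peak in all 6 libraries per Mb of sequence between protein-coding genes, by the distance (kb) of the strongest summit from the nearest gene; blue marks distances over 100 kb and the number above each bar counts its regions. The density falls at every step, from 43.4 to 1.05 per Mb.

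The regions were spread unevenly over the deserts. Of 1537 intervals of more than 200 kb between neighbouring protein-coding genes, 844 held at least 1 gene desert region and 693 held none. The 143 intervals with 10 or more held 2595 regions (53.8%), and 226 intervals held 1. The nearest other gene desert region was 10625 bp away at the median, and 1582 regions (32.8%) had another within 5 kb. Intervals with a region had a median length of 560 kb, against 326 kb for those without. Length alone did not fix the number: of 281 intervals over 1 Mb, 210 held a region and the others none. On average there were 6.53 regions per Mb of core, the sequence of an interval that is more than 100 kb from both of its genes.

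The desert with most regions lay between Zeb2, a zinc finger repressor of epithelial genes, and the activin receptor gene Acvr2a, with 50 regions in an interval of 3.7 Mb (14.3 per core Mb). The interval from Mki67, the proliferation marker, to the DNA repair gene Mgmt held 46 in 1.18 Mb (47.0 per core Mb). Between Nmbr, a neuropeptide receptor gene, and Cited2, a transcriptional co-regulator, there were 41 in 2.95 Mb (14.9 per core Mb). Another 41 stood between Cdh11, the cadherin of mesenchymal and bone-forming cells, and Cdh5, the cadherin of endothelial cells, in 1.32 Mb (36.7 per core Mb). The interval from Runx1, a transcription factor of blood formation, to the methyltransferase gene Setd4 held 39 in 0.757 Mb (70.0 per core Mb). At the other end, 2 regions stood in the 3.99 Mb between Tenm3 and Aga and 2 in the 3.55 Mb between the cadherin genes Cdh6 and Cdh9. The longest intervals with no region ran for 3.41 Mb, beside the neuronal catenin gene Ctnna2 and between the synaptic gene Slitrk5 and the glypican gene Gpc5.

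Within the fullest deserts, strong and weak regions stood side by side. Over all 4825 regions, 408 (8.46%) had a median percentile rank of 80 or more. Of the regions between Cxcl12 and Zfp637, 10 of 32 (31.2%) did, and those between Mki67 and Mgmt had 10 of 46 (21.7%). The interval beside Mn1, a transcriptional co-regulator, had 8 of 29 (27.6%), and that beside the growth regulator Myc had 8 of 28 (28.6%). By contrast, none of the 41 regions between Nmbr and Cited2, and none of the 33 between the Notch ligand gene Jag1 and Btbd3, had a median of 80 or more. The desert of Cxcl12, which encodes a chemokine of the stem cell niche, had 69.7 regions per core Mb, and its strongest region (chr6:117465124-117467013, 285 kb from Cxcl12 and chosen after its values were seen) ranked at 96.7, 97.7 and 97.9 in PBS replicates 1 to 3 and at 96.5, 96.4 and 97.8 in DOX replicates 1 to 3.

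**Figure D2:**
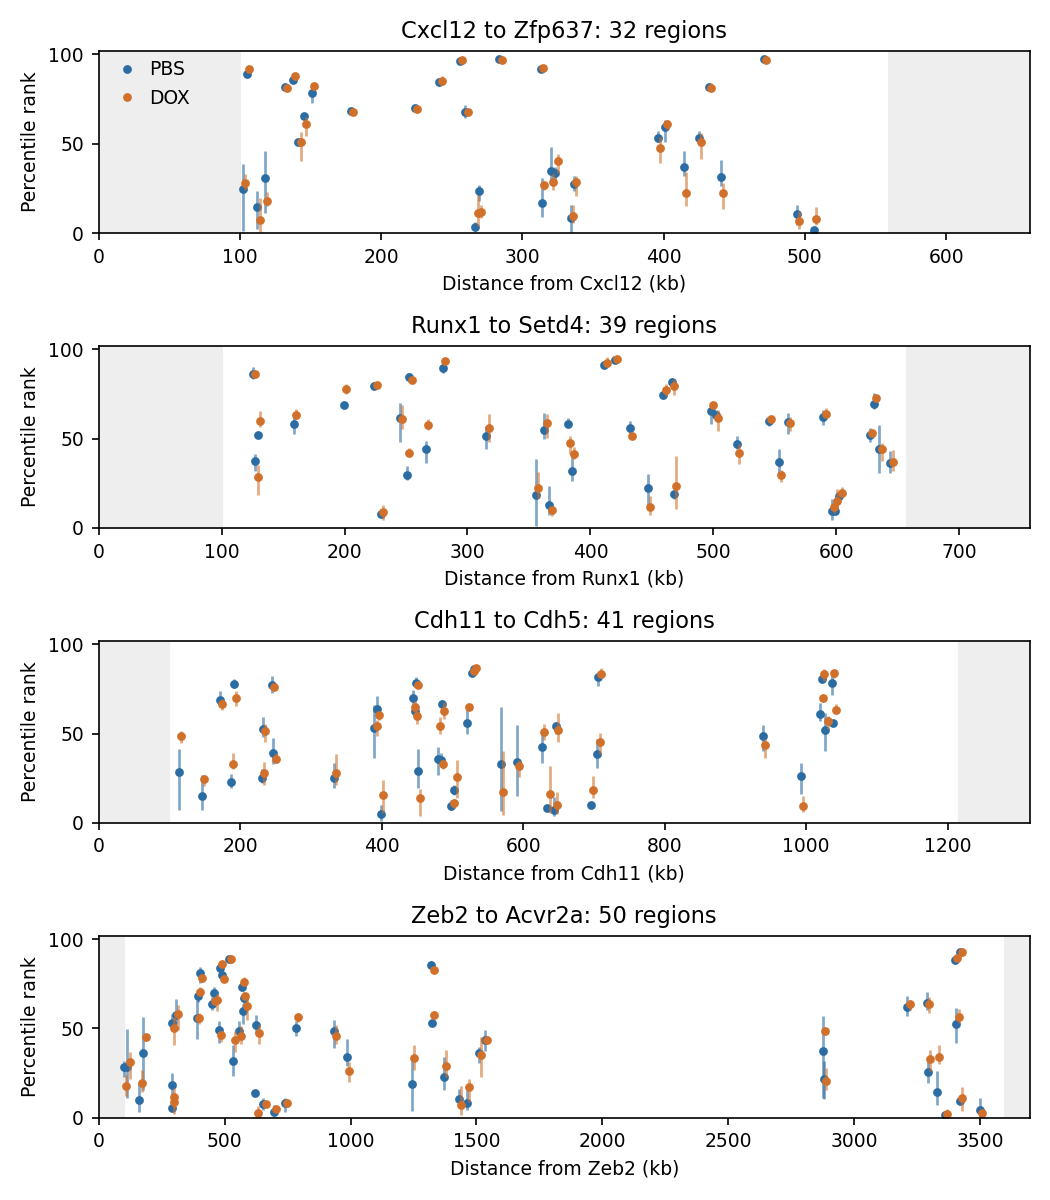
Each panel is a desert, with distance from its left gene (kb) on the horizontal axis and percentile rank on the vertical axis; points are means of 3 libraries, lines run from the lowest to the highest library, and the grey ends, within 100 kb of a gene, hold no region by the rule. PBS (blue) and DOX (orange) points of a region lie close together for strong regions, and the spread is wider for weak ones.

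The strongest region of each of the 5 fullest deserts had similar ranks in all 6 libraries. Each was picked for its median rank over these same libraries. Strong regions spread less than weak ones, so the similar ranks are a description only. Beside Acvr2a (chr2:48538716-48540299, 274 kb from the nearest gene and at an end of the lncRNA Gm39809), the ranks were 92.5, 92.4 and 92.9 in PBS and 92.4, 92.4 and 93.1 in DOX. Between Mki67 and Mgmt (chr7:136554550-136557398), they were 91.0, 92.6 and 88.1 in PBS and 92.1, 91.2 and 92.1 in DOX. Between Runx1 and Setd4 (chr16:93246657-93247671), they were 94.1, 94.6 and 93.1 in PBS and 94.5, 95.8 and 94.0 in DOX. In all of these the groups overlapped. For the region between Cdh11 and Cdh5 (chr8:103316716-103317541, at an end of the lncRNA Gm39234) the ranks ran from 85.0 to 87.0 over all 6 libraries, and for that beside Cited2 (chr10:17518390-17519227, inside the lncRNA Gm32543) from 75.9 to 80.1.

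Deserts beside developmental transcription factors held more regions per Mb than those beside a list of adhesion and synaptic genes that are typical of gene-poor intervals, and the latter deserts are longer. Of 79 mesenchymal and limb transcription factor genes, 60 stood at the edge of an interval of more than 200 kb and 49 of these flanked at least 1 region. Their 79 intervals, with 37.9 core Mb, held 499 regions (10.3% of all) at 13.2 per core Mb. Of 48 genes of MSPC niche function and signalling, 22 stood at an edge and 17 flanked a region, with 186 regions (3.85%) at 12.2 per core Mb. Of 81 matched genes of cell adhesion and synapses, 74 stood at an edge and 55 flanked a region. Their 107 intervals, with 149.1 core Mb, held 328 regions (6.8%) at 2.2 per core Mb. The lists were compared as counts against 6.53 per core Mb over all intervals, and no test was made. Density falls with distance from genes for all regions, as given above, and the part of interval length in the contrast was not tested.

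Among the transcription factors, Zeb2 flanked 50 regions, Runx1 39, Maf 36, Klf4 29, Klf6 27, Nfib 26 and the early stromal and B cell factor Ebf1 23. The chondrocyte factor Sox9 flanked 21, Sox4 19, and Meis1, a partner of Hox proteins, 17. Among genes at the edge of a long interval that flanked none were Nr2f2, Tbx5, Twist2, Foxp2 and Irx2. In the niche and signalling list, Cdh11 flanked 45 regions, Cxcl12 33, the bone morphogenetic protein genes Bmp4 21 and Bmp2 14, and Fgf9 17. Pdgfra, which encodes a receptor of stromal progenitors, flanked 3. Kitl, the gene of stem cell factor, flanked 2, the stronger of them at a median rank of 19.8. No region was flanked by Fgf10, Col1a2, Lifr, Npr3 or Pthlh. Members of the adhesion list were not uniform: Adgrl2 flanked 44 regions, 1 of them at a median rank of 95.5, and Flrt2 25, while 19 genes, among them Cntnap2, Nlgn1, Ctnnd2 and Opcml, flanked none.

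Many regions lay in or at lncRNA genes. The strongest summit was inside a lncRNA gene for 1018 regions (21.1%), while lncRNA genes cover 9.83% of the core sequence. It was within 1 kb of a lncRNA end for 251 regions (5.2%), where such windows cover 1.19% of the core. The latter had a median percentile rank of 45.8, against 42.8 for the 879 regions inside a lncRNA gene and away from its ends and 40.3 for the 3695 regions at no lncRNA. Only 645 regions (13.4%) were also more than 100 kb from genes of every other type in the table.

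Apart from that of Firre, the promoter regions of the lncRNAs whose sequences are shown above had steady ranks. The region at 6820426E19Rik ranked at 91.4, 92.5 and 91.5 in PBS and at 91.7, 93.6 and 91.4 in DOX. That at Gm51670, whose summit is 2152 bp from the Mir125b-1 hairpin, ranked at 86.3, 90.9 and 89.8 in PBS and at 91.9, 88.9 and 90.1 in DOX. At Mir100hg the ranks were 69.8, 68.9 and 68.0 in PBS and 67.2, 66.8 and 69.2 in DOX. The groups overlapped at all of these. The Firre region (chrX:50635086-50635933) ranked at 75.2, 77.6 and 78.0 in PBS and at 70.6, 70.3 and 71.0 in DOX, so that every DOX library was below every PBS library. Its difference was -6.32 percentile points (SE 1.94), with an adjusted p of 0.226 in limma. Firre was picked for this separation, which was also seen in 10.2% of gene desert regions and 9.31% of all shared regions.

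The microRNA genes had regions of very different strength nearby. Around Mir29a and Mir29b-1, between Klf14 and Mkln1, 3 regions lay within 5 kb. The strongest (chr6:31058474-31059609) ranked at 96.4, 95.1 and 97.3 in PBS and at 95.3, 96.4 and 95.8 in DOX. The weakest (chr6:31066937-31067421) ranked at 20.8, 17.95 and 23.3 in PBS and at 10.7, 10.5 and 15.1 in DOX; the groups did not overlap, and the adjusted p was 0.461 in limma. Beside Mir100, a region 367 bp from the hairpin (chr9:41531667-41532077) ranked at 5.19, 29.0 and 19.5 in PBS and at 42.8, 25.9 and 40.5 in DOX. There the groups overlapped, and the difference of 18.5 points (SE 7.11) had an adjusted p of 0.307 in limma. A stronger region 992 bp from the same hairpin stayed between 70.9 and 76.7 in all 6 libraries. The region near Mir99a and Mirlet7c-1 (chr16:77594620-77595334), 482 kb from the nearest protein-coding gene, ranked between 44.7 and 59.2. The region near Mir802, in the desert beside Runx1, ranked between 56.9 and 62.3.

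As a class, the gene desert regions were about as strong as other regions away from gene ends. Their median percentile rank was 42.6, 42.2 and 41.8 in PBS replicates 1 to 3 and 42.2, 41.1 and 40.9 in DOX replicates 1 to 3. Shared regions between genes but within 100 kb of one had medians of 43.3 to 44.0, those inside genes 41.6 to 42.4, and those within 1 kb of a gene end 81.9 to 82.5. The deserts held few of the strongest regions: 2.53 to 2.90% of gene desert regions were in the top 10% of a library, against 3.54 to 3.89% of regions between genes within 100 kb, 4.36 to 4.74% of regions inside genes and 31.7 to 32.6% of those at gene ends. The median fold enrichment, a value of the authors that is not scaled between libraries, ranged from 12.2 to 20.3 over the PBS libraries and from 22.1 to 25.8 over the DOX libraries. It was lowest in PBS replicate 3 and highest in DOX replicate 3, the libraries of least and most depth. It did not follow depth throughout, since DOX replicate 1 was deeper than DOX replicate 2 and had the lower median. The median SD of a region's rank over 3 libraries was 5.24 points in PBS and 3.86 in DOX. It was 4.87 and 3.57 for regions between genes within 100 kb, 4.84 and 3.55 inside genes, and 1.76 and 1.33 at gene ends.

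**Figure D3:**
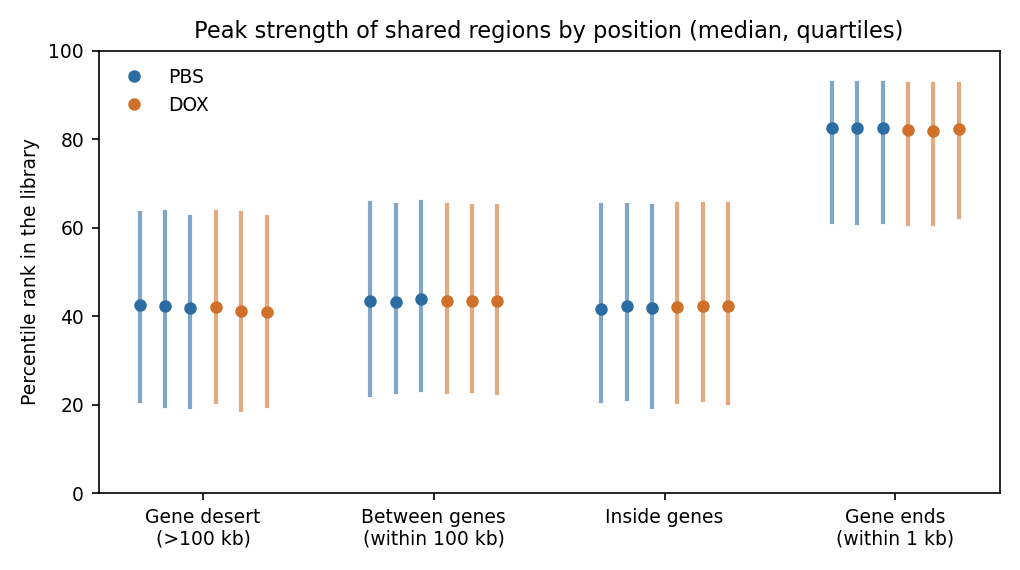
Points give the median percentile rank of shared regions in each library and lines the quartiles, for regions in gene deserts, between genes within 100 kb, inside genes and at gene ends; blue is PBS and orange DOX, in replicate order. Gene desert regions have medians of 40.9 to 42.6, close to regions inside genes, while gene ends have medians of 81.9 to 82.5.

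The strongest gene desert regions were led by a pair on chromosome 2, between the synaptic adhesion gene Lrrc4c and Iftap. One (chr2:98666240-98667343, 1040 kb from the nearest gene) ranked at 100 in every library, with fold enrichments of 5744, 2860 and 4018 in PBS and 3704, 1583 and 1550 in DOX. Its neighbour (chr2:98662235-98664102) had fold enrichments of 1018, 366 and 743 in PBS and 560, 159 and 181 in DOX. The fold of both was higher in every PBS than in DOX replicates 2 and 3, while the median fold of the class was lower in every PBS library than in every DOX library. This place is known as one of the high-signal regions that are often removed from mouse sequencing data, and no list of such regions was used here. The third strongest (chr14:124801440-124802247) lay 124 kb beyond Fgf14, with no protein-coding gene after it, and ranked between 99.94 and 99.99.

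The other 7 of the strongest 10 had fold enrichments of 115 to 277 over all libraries. They lay between the repressor gene Bcl6 and Lpp (chr16:24281669-24282961, inside the lncRNA Gm38456), between the co-repressor gene Tle3 and Rplp1 (chr9:61702201-61703356), between Akr1e1 and Klf6 (chr13:4770998-4772137) and between Eipr1 and Myt1l (chr12:29290797-29291519). The last 3 lay between F2rl3 and Isx (chr8:73352510-73354889, 590 kb from a gene), between Ppp1r14bl and Ogfrl1 (chr1:23255809-23257408) and between Myc and Gsdmc (chr15:62328169-62329527). The region beside Klf6 ranked at 99.3, 99.3 and 99.4 in PBS and at 99.3, 99.3 and 99.0 in DOX. That beside Myc, 338 kb from the gene, ranked at 98.1, 99.0 and 98.3 in PBS and at 99.3, 99.4 and 98.7 in DOX.

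The regions farthest from genes were of middling or low strength. The farthest (chr1:102353000-102353718) stood 1862755 bp from a gene, between the neuronal genes Cntnap5b and Cdh20, and ranked at 44.3, 61.0 and 55.6 in PBS and at 54.1, 44.6 and 47.5 in DOX. Its neighbour (chr1:102335377-102335795), inside the pseudogene Gm3116, ranked at 29.3, 11.4 and 19.5 in PBS and at 39.3, 33.0 and 32.8 in DOX, so that the groups did not overlap. The next 3 lay near Efna5 (chr17:60922356-60922852), near Pcdh9 (chr14:91338277-91338785) and near Tenm2 (chr11:38892028-38892267). The region near Pcdh9 ranked at 17.9, 13.0 and 7.08 in PBS and at 31.8, 28.7 and 26.3 in DOX, also without overlap. The adjusted p in limma was 0.252 there and 0.330 for the region inside Gm3116. All DOX libraries were above all PBS libraries at 9.2% of all shared regions. The groups overlapped at the rest of the farthest regions. The region near Tenm2 stayed between 3.59 and 10.7 in all 6 libraries.

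No gene desert region was called different between DOX and PBS. In limma, fitted to the ranks of all 55226 shared regions with Benjamini-Hochberg adjustment, 0 regions (0%) passed an adjusted p of 0.05 in either direction, and the smallest adjusted p was 0.146 among gene desert regions and 0.115 among all. At an unadjusted p under 0.05, 332 gene desert regions (6.88%) had the higher rank in DOX, against 6.73% of all shared regions, and 377 (7.81%) the lower rank, against 6.1%. All DOX libraries were above all PBS libraries at 422 gene desert regions (8.75%), against 9.2% of all shared regions, and below them at 491 (10.2%), against 9.31%. The shares of the class were thus near those of all shared regions. On simulated data for this comparison, 200 of 55226 regions, drawn from all positions, were changed. The test recovered 0% of changes of 0.5 on the log2 scale, 57.5% of changes of 1 and 89% of changes of 2. Small changes could thus not be detected there with 3 libraries a group. The simulation gave all regions of a library the same spread, so its shares are not those of gene desert regions, which were not simulated apart.

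The median difference, DOX minus PBS, was -0.42 percentile points over gene desert regions (quartiles -4.61 and 3.28) and -0.06 over all shared regions. It was 0.07 when the weakest 25% of shared regions was left out. The share of peaks that lie in deserts was also similar. Among the 65462 strongest peaks of each library, the summit was more than 100 kb from a gene for 9.11, 9.11 and 8.55% in PBS replicates 1 to 3 and for 9.01, 8.83 and 8.77% in DOX. The means were 8.93% ± 0.321 (SD, n = 3) and 8.87% ± 0.126 (SD, n = 3), with a two-sided exact permutation p of 0.8, where the smallest p that 3 against 3 can give is 0.10.

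**Figure D4:**
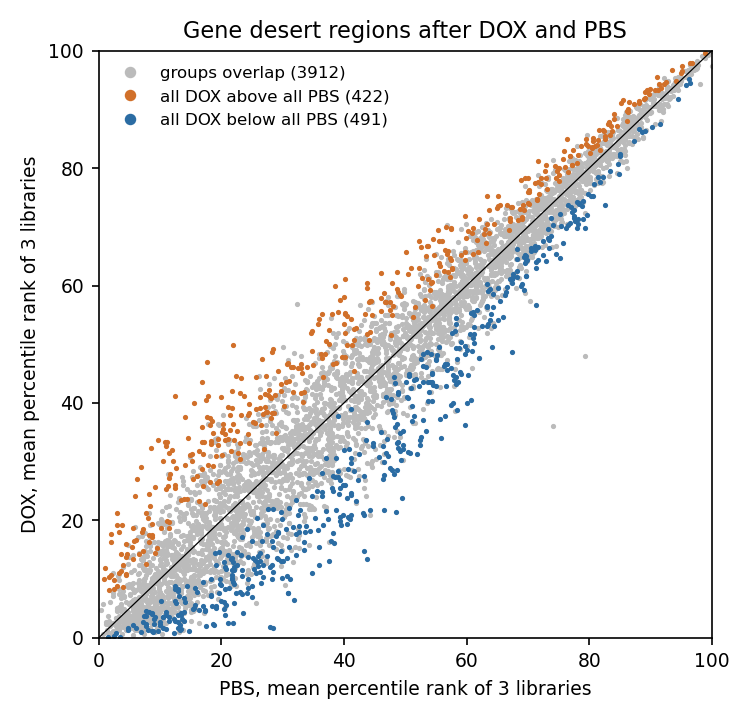
Each point is a gene desert region, with its mean percentile rank over 3 PBS libraries on the horizontal axis and over 3 DOX libraries on the vertical axis; the line marks equal ranks. The 422 orange regions had all DOX above all PBS libraries and the 491 blue ones all below, and the scatter narrows toward strong regions.

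Of the regions whose groups did not overlap, the 3 with the largest difference toward DOX were weak in PBS. The region between Il3ra, a cytokine receptor gene, and Slc4a7, a bicarbonate transporter gene (chr14:14583948-14584764), ranked at 11.9, 4.40 and 36.5 in PBS and at 42.2, 54.9 and 43.8 in DOX. The difference was 29.3 points (SE 7.74), with an adjusted p of 0.183 in limma. The region between the imprinted gene Rtl1 and Dio3, which encodes a deiodinase that inactivates thyroid hormone (chr12:110070541-110070974, inside the lncRNA Gm34719), ranked at 25.2, 8.43 and 3.59 in PBS and at 44.1, 52.5 and 26.9 in DOX. The region between the co-repressor gene Irf2bp2 and the mitochondrial import gene Tomm20 (chr8:126808503-126808966, inside the lncRNA Gm31718) ranked at 29.3, 21.2 and 15.4 in PBS and at 37.7, 46.4 and 65.4 in DOX. The lowest PBS rank in the last 2, and the highest in the region near Slc4a7, came from PBS replicate 3, which had the least depth. Weak ranks are coarse in that library, because regions of equal −log10 p share a rank. There a fold of 5.14 stood at rank 3.59 and a fold of 5.78 at rank 7.08.

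The 3 with the largest difference toward PBS all lay on chromosome 2. The region between Celf2, an RNA-binding protein gene, and the transcription factor gene Gata3 (chr2:9593917-9594399, 263 kb from a gene) ranked at 46.8, 31.8 and 52.8 in PBS and at 10.7, 13.6 and 15.8 in DOX. The difference was -30.4 points, with an adjusted p of 0.152 in limma. In that desert 3 of 6 regions had all DOX below all PBS libraries, against 9.31% of all shared regions. The desert is named only for this region, which is among the 3, so the count is a description and no separate support. The region between Gpd2 and Galnt5 (chr2:57629493-57629725) ranked at 31.9, 24.5 and 73.5 in PBS and at 10.7, 19.9 and 13.6 in DOX. Its difference was -28.6 points, and -13.4 points without PBS replicate 3, so that its place among the 3 rests on that library. The region between Nup35 and Zfp804a (chr2:81182477-81182874) ranked at 54.4, 35.7 and 55.6 in PBS and at 12.8, 27.8 and 23.4 in DOX. None of these passed the test.

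Strong and weak gene desert regions leaned in opposite directions between the groups. Among the 401 with a mean percentile rank of 80 or more, 61 (15.2%) had all DOX above all PBS libraries and 16 (3.99%) all below. Among the other shared regions of that strength the shares were 10.2% of 10541 above and 10.9% below. Among the 1155 gene desert regions under a mean rank of 20, 63 (5.45%) were above and 148 (12.8%) below, with a median difference of -2.25 points, against 6.97% and 8.66% of the other shared regions and -0.87 points. Regions inside genes with a mean rank of 80 or more had shares of 13.5% above and 8.65% below, those between genes within 100 kb 12.3% and 7.35%, and those at gene ends 8.4% and 12.7%. The strength classes were chosen after the values had been seen and were not tested. Without PBS replicate 3, the strong gene desert regions had 84 (20.9%) above and 31 (7.73%) below, against 19.1% and 12.5% inside genes, 16.9% and 12% between genes within 100 kb, and 12.4% and 19.9% at gene ends. Every DOX library was deeper than every PBS library, and the part of depth in this split was not tested.

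**Figure D5:**
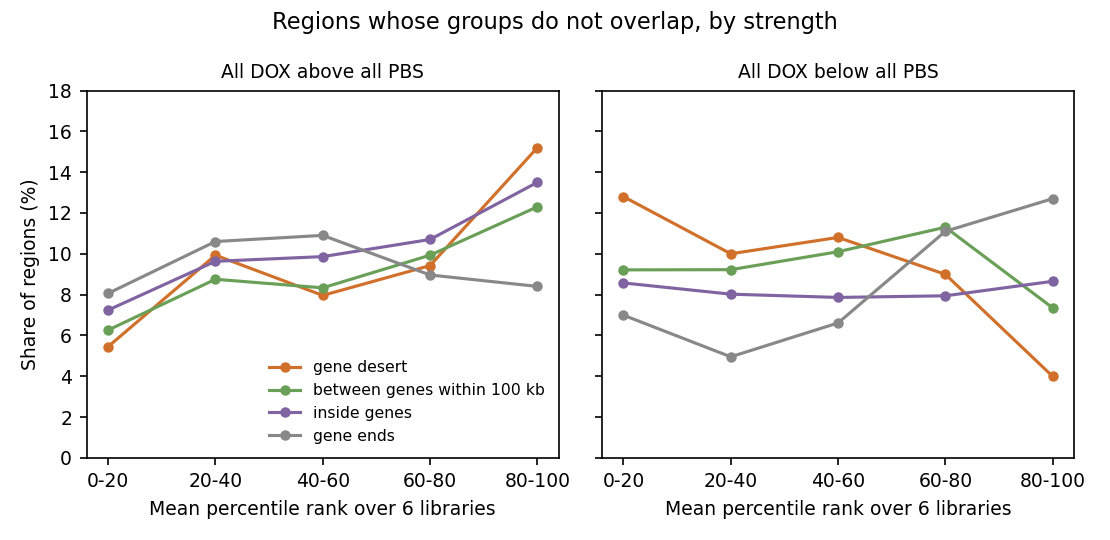
Lines give the share (%) of shared regions in each class of mean percentile rank whose DOX libraries were all above (left) or all below (right) the PBS libraries, for 4 positions relative to genes. Gene desert regions run from 5.45% to 15.2% on the left and from 12.8% to 3.99% on the right.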

How the data were processed

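ATAC-seq peaks of 3 PBS and 3 DOX libraries were used, grouped by the sample titles. The build is mm10, and Trim Galore 0.6.6, Bowtie2 2.4.5, Picard 2.10.9 and MACS2 2.2.7.1 are among the tools named, per the submitters' processing notes (peak caller settings and treatment of Tn5 cut sites: not given in the sources used here). Values deposited by the authors for a peak are a fold enrichment (a ratio), a −log10 p, a −log10 q, a score and a summit position. They are not scaled between libraries. Here they served to place summits, to rank regions within a library, and to recover the background from fold and p of 400 peaks a library, which made 100% of pileups whole within 0.1. Lists held 65462 to 100642 peaks on the chromosomes used, and 13 to 19 on chromosome Y were left out.

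Peaks overlapping by 1 bp were merged, coordinates are 1-based, and genes came from the RefSeq table of GRCm38.p6. Ranks of the shared regions were compared with limma 3.58.1 in R 4.3.3 (trend and robust moderation), which was tested on simulated data, and desert shares by an exact permutation test over libraries. The alternatives are other list lengths, thresholds, overlaps, distances, weights and scales, a replicate block and each library left out. Named regions are the 3 with the largest difference in each direction whose groups did not overlap, the 10 strongest, the 5 farthest from genes, the strongest of the 5 fullest intervals, and those beside the thresholds; others are said to be chosen later. The regions, gene lists and rules were chosen with earlier results of these data known. No genome was used, so the sequences of the regions themselves were not analysed here and motifs were searched in RefSeq promoter windows only.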

Additional observations from a re-analysis of the deposited data

How the results depend on the processing

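No gene desert region was called under any of the 13 refits, and the median difference stayed between -0.63 and -0.27 points except without the weakest 25% of regions (0.07). With limma's array weights, 4 shared regions were called higher and 1 lower, none of them in a gene desert; the cause was not tested. The number of gene desert regions was 7780 beyond 50 kb, 2362 beyond 200 kb and 645 when genes of every type were counted, since those rules set it. The small difference in the share of peaks in deserts, -0.05 percentage points, changed sign with the deposited lists (0.11) and beyond 50 kb (0.00204), and ran from -0.24 to 0.0402 when libraries were left out, positive without PBS replicate 1 (0.0402) or PBS replicate 2 (0.0372); the cause was not tested. Regions with all DOX above all PBS libraries numbered 572 to 750 (11.9 to 15.5%, against 13.1 to 16.2% of all shared regions) and those below 679 to 859 (14.1 to 17.8%, against 13.2 to 16.7%) when a library was left out, with fewer samples to overlap. Ranks of the 6 regions named for their difference kept their direction and stayed uncalled in each refit that held them, 76 values in all; the region near Slc4a7 was not among the shared regions of the equal-length lists, nor that near Dio3 with a −log10 q of at least 5. The deviations of PBS and DOX libraries with the same replicate number correlated at 0.14, -0.12 and 0.05. These values show no pairing by number, but with 3 libraries a group they cannot exclude one. With the replicate block, 0 regions were called in either direction, 6958 were at an unadjusted p under 0.05 (7086 without it), and the median difference was -0.42. Depth was lowest in PBS replicate 3 (0.558 fragments per position), and its part in the spread of weak regions was not tested. The alternative of normal scores gives the median in another unit and was not compared.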

Other observations

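The regions named in the next paragraphs were chosen after their values were seen, and none passed the limma test. The strong gene desert regions named first had all DOX above all PBS libraries. How the 61 such regions are spread over the deserts was not examined. Between Tnc, the gene of the matrix protein tenascin-C, and Pappa, which encodes a protease of insulin-like growth factor binding proteins, a region (chr4:64676281-64677833) ranked at 75.6, 76.5 and 77.2 in PBS replicates 1 to 3 and at 83.2, 84.7 and 87.0 in DOX replicates 1 to 3 (adjusted p 0.146 in limma). A second region of that desert (chr4:64535538-64536667) ranked at 87.9, 83.0 and 84.7 in PBS and at 89.5, 92.4 and 91.4 in DOX. Over the whole desert, 4 of 29 regions had all DOX above all PBS libraries and 2 had all below. Of all shared regions, 9.2% were above and 9.31% below. The desert was picked for the named regions, which are among the 4, so the count is a description only.

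Against the same 9.2% above and 9.31% below over all shared regions, the desert between Irf2bp2 and Tomm20 held 21 regions, of which 5 had all DOX above all PBS libraries and 1 all below, with a median difference of 2.79 percentile points. Its region 104095 bp from a gene (chr8:126825907-126827337) ranked at 87.0, 84.5 and 85.3 in PBS and at 92.2, 92.2 and 90.3 in DOX. The desert between Rtl1 and Dio3 held 10 regions, of which 4 had all DOX above and 0 all below (9.2% and 9.31% of all shared regions), with a median difference of 6.39 points. There the region chr12:110020379-110021504 ranked at 77.1, 76.8 and 78.0 in PBS and at 84.1, 81.9 and 83.0 in DOX. Both deserts were picked for regions that these counts include, so the counts are descriptions only. Among strong regions with all DOX below all PBS libraries, the largest difference was -5.76 points, between Fam169b and Arrdc4 (chr7:68466722-68468191), with ranks of 82.2, 85.7 and 86.6 in PBS and 76.2, 80.2 and 80.8 in DOX. The next was -4.08 points, between Phlda1 and Krr1 (chr10:111838299-111839198). The remaining region shown, between Abca1, a cholesterol transporter gene, and Slc44a1 (chr4:53303309-53304914), ranked at 90.6, 91.1 and 92.8 in PBS and at 88.8, 89.4 and 84.5 in DOX.

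The largest differences of all with overlapping groups came from a region between the strongest pair on chromosome 2 (chr2:98664905-98665224), with ranks of 84.2, 49.2 and 88.8 in PBS and 65.3, 11.5 and 31.6 in DOX, and from a region between Tcp10c and Tcte2 (chr17:13550692-13553189), with ranks of 83.7, 57.4 and 96.9 in PBS and 87.5, 37.0 and 19.6 in DOX. In both regions the ranks of each group spread widely. The first lies at the place on chromosome 2 that is known for high signal, as given above.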
